A study of Mus musculus with 22 samples.

Results

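The 10 genes described here are markers of macrophages and monocytes, chosen by name: Adgre1, Cd68, C1qa, C1qb, C1qc, Mrc1, Cd163, Ccr2, Cx3cr1 and Vsig4. They are 10 of 25471 genes in the count tables, all 10 were found there by their Ensembl identifier, and all 10 passed the filter on low counts that left 18793 genes for testing. RNA came from the middle of the ulna, one of the long bones of the forelimb, of 11 mice. In each mouse the right ulna had been loaded mechanically and the left ulna had not, which gave 22 libraries in 4 groups: non-loaded and loaded ulnae of 7 wildtype (WT) mice, and non-loaded and loaded ulnae of 4 Tlr4 conditional knockout (CKO) mice. The series title speaks of Tlr4 signalling in osteoblasts, which lay down bone matrix. Of the Cre driver, the loading regime, the time between loading and harvest, and the strain, sex and age of the mice the sources used here say nothing. No other difference between the genotype groups is labelled, and both limbs of a mouse share its genotype.

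Macrophages of bone are phagocytes that clear dying cells and debris, and some of them line bone surfaces or sit in the marrow, where they serve as the centre of islands of maturing red cells. Part of them are renewed from monocytes, which leave the marrow for the blood and enter tissues along chemokine gradients. Osteoclasts, which resorb bone, arise from the same lineage. Tlr4 is a receptor for bacterial lipopolysaccharide that macrophages and monocytes carry themselves, besides osteoblasts. A piece of ulna also holds marrow, vessels and adhering muscle, so that a level in bulk RNA is an average over all of these; fewer cells of a type and less RNA per cell cannot be told apart in it.

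The 10 genes have different roles. Adgre1 encodes an adhesion receptor of the surface of mature mouse macrophages, and Cd68 a glycoprotein of their lysosomes. C1qa, C1qb and C1qc encode the chains of C1q, the recognition molecule of the classical complement pathway. Mrc1 is the macrophage mannose receptor, Cd163 takes up haemoglobin bound to haptoglobin, and Vsig4 is a complement receptor of resident macrophages. Ccr2 is the chemokine receptor with which inflammatory monocytes leave the marrow, and Cx3cr1 the receptor for fractalkine, carried by patrolling monocytes and several tissue macrophages. The C1q genes are neighbours on chromosome 4 (GRCm38): C1qb at 136880129 to 136886187, C1qc at 136889804 to 136893065 and C1qa at 136895917 to 136898803, all on the minus strand with 3 exons each. The others lie apart from one another, Adgre1 on chromosome 17, Cd68 on 11, Mrc1 on 2, Cd163 on 6, Ccr2 and Cx3cr1 on 9 and Vsig4 on X. All 10 are protein coding in the annotation.

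Start-site sequences of 8 of the 10 genes were found in RefSeq (GRCm38.p6), each a window of 300 bases across the start. They are shown for C1qb and C1qc, whose RNAs kept a nearly fixed ratio, for Mrc1, whose RNA followed them, for Cd68, and for Cd163, whose RNA ran apart. Each is written 5′ to 3′ on the gene's strand, with capitals for matches to the core letters GAGGAA bound by PU.1, the master regulator of the myeloid lineage (TTCCTC on the other strand), and in Cd68 also to the AP-1 letters TGANTCA and the C/EBP letters TTGCNNAA.
C1qb, chr4:136886151-136886450, strand -: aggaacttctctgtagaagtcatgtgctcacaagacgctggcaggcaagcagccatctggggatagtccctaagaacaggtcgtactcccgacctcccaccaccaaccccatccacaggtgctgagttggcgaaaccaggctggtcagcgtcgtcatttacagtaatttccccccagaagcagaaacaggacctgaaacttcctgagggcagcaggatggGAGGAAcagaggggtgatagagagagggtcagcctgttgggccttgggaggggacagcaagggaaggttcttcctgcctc
C1qc, chr4:136892865-136893164, strand -: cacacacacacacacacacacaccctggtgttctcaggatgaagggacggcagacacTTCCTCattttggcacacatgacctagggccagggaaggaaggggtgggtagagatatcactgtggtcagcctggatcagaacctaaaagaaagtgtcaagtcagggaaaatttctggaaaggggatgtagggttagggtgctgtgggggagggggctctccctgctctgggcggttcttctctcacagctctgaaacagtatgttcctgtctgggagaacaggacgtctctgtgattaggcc
Mrc1, chr2:14229164-14229463, strand +: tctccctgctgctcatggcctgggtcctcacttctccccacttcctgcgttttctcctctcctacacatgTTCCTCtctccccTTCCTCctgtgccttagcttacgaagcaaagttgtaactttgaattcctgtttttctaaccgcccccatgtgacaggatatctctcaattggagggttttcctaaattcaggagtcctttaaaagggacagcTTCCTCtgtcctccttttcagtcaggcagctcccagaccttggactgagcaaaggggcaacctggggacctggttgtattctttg
Cd68, chr11:69666121-69666420, strand -: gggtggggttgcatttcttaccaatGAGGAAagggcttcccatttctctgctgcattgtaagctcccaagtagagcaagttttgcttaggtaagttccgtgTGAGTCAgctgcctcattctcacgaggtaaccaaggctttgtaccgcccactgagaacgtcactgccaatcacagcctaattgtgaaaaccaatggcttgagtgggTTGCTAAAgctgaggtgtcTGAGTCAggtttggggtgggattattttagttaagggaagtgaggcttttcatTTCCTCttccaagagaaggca
Cd163, chr6:124304401-124304700, strand +: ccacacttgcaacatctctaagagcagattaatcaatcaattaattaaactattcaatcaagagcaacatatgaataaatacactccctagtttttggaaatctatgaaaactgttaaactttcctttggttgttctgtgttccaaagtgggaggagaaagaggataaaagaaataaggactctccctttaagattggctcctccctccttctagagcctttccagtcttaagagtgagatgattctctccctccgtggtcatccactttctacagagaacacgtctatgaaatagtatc
The PU.1 core stood once each in C1qb and C1qc, 3 times in Mrc1 and 2 times each in Cd68 and Vsig4, and it was not found in Cd163, Ccr2 and Cx3cr1. It is a common string: 28.3% of 32851 promoter windows of this length hold it on either strand. The AP-1 letters, in 7.81% of all windows, and the C/EBP letters, in 10.8%, were matched in Cd68 alone of the 8 (2 matches and 1 match). A match is a description of the letters only.

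Tlr4 was read first, as the gene named in the labels. Its level ranged from 24.9 to 39.4 CPM (the count scaled to library size; median 31.1) in WT non-loaded ulnae and from 28.9 to 42.2 CPM (median 32.2) in WT loaded ulnae. The CKO mice 688, 691, 693 and 698 had 29.3, 31.3, 25.7 and 33.8 CPM in the non-loaded and 32.4, 30.0, 29.3 and 24.9 CPM in the loaded ulna. The groups overlapped, and no genotype difference of Tlr4 was called in either limb (log2 CKO/WT -0.11 ± 0.12 and -0.20 ± 0.12, SE; edgeR adjusted p = 0.976 and 0.606), so gene-level Tlr4 RNA in these bulk samples is no check of the genotype labels. A second gene went against the labels in 2 libraries: Ltbp2, a matrix protein gene, lay at 26.5 to 73.5 CPM in 13 WT libraries and at 205 to 344 CPM in 7 CKO libraries, but at 380 CPM in the library labelled WT loaded of mouse 686 and at 38.4 CPM in the library labelled CKO loaded of mouse 688. Whether these 2 loaded libraries were exchanged was not tested, and all values below follow the labels. Without mice 686 and 688 no member passed the test in any comparison either, and the members' median log2 loading change was 0.08 in WT and -0.66 in CKO mice. The difference between the CKO and WT loading changes, taken gene by gene, had a median of -0.80 over the members. The members' median for CKO against WT was 0.34 in non-loaded and -0.44 in loaded ulnae. The libraries held 21999891 to 42833729 counts.

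Levels were compared between genes per kilobase of exon, as means over the 11 mice. C1qb was highest at 49.99 ± 11.6 CPM per kb (SD, n = 11 mice), followed by C1qa at 44.3 ± 11.6 and C1qc at 29.3 ± 7.27. C1qb was above C1qa in 21 of 22 libraries and C1qa above C1qc in all 22. Cd68 came next at 25.2 ± 6.13 CPM per kb, then Ccr2 at 13.4 ± 4.16, Mrc1 at 12.2 ± 2.91 and Adgre1 at 8.93 ± 1.85. Ccr2 and Mrc1 did not differ beyond their spread, since Ccr2 was the higher in 13 of 22 libraries and in 7 of 11 mice. Tlr4, at 5.71 ± 0.73 CPM per kb, stood between Adgre1 and Cd163 (4.39 ± 1.70), with Cx3cr1 at 2.67 ± 0.46 and Vsig4 last at 0.36 ± 0.26. Most of these genes are well expressed in a piece of ulna. By mean CPM per kb, C1qb lay above 96.7% of the genes tested and Cd68 above 93.3%. Cx3cr1 lay above 49.2% and Vsig4 above 15.2%. Vsig4 rested on 3 to 60 counts per library, against 773 to 4172 for C1qb, so its values carry far more counting error.

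**Figure D1:**
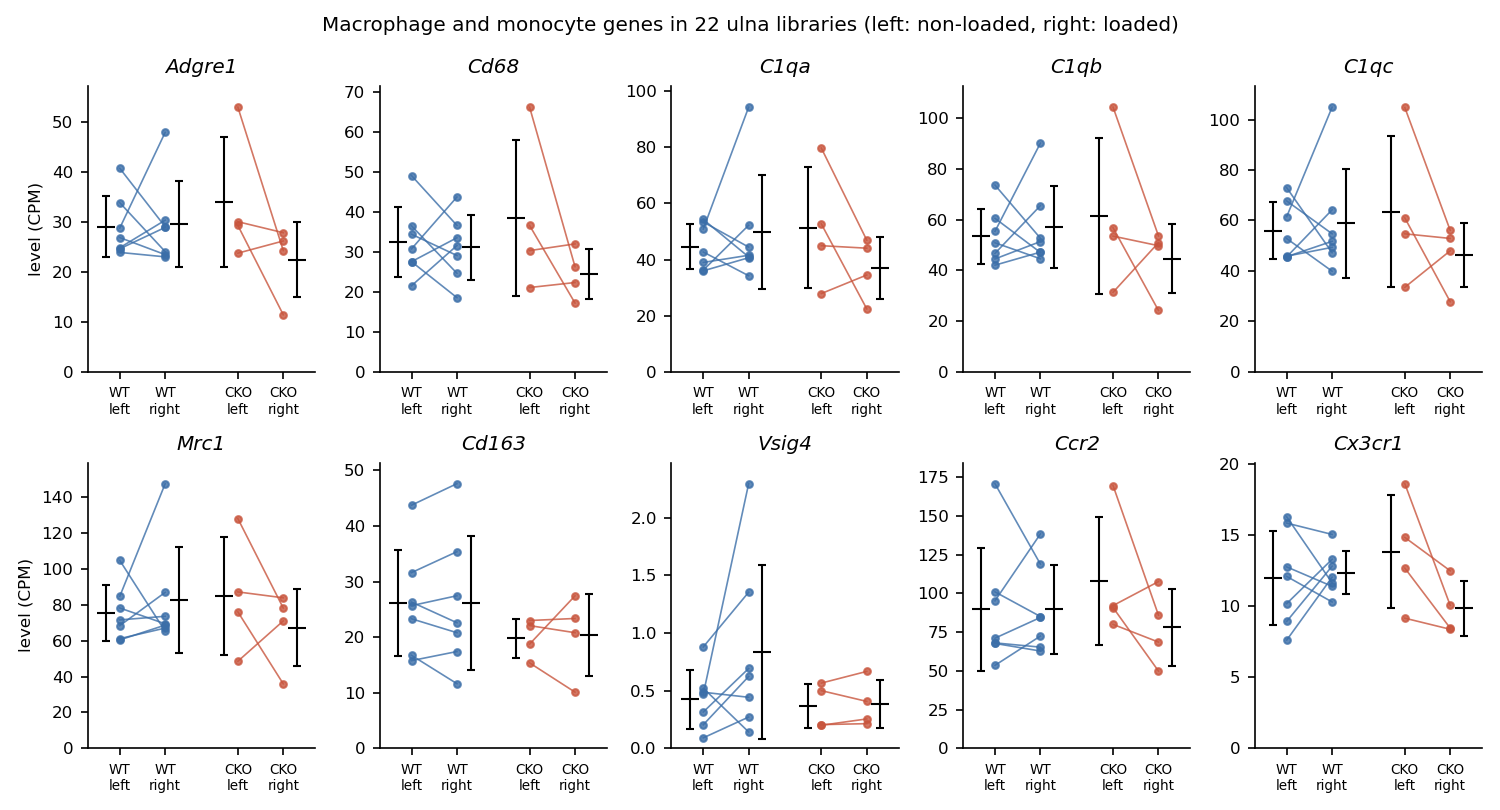
Level of each gene (CPM, linear axis from 0) in the non-loaded left and loaded right ulna of 7 WT (blue) and 4 CKO (red) mice. Lines join the limbs of a mouse, and black bars give the mean ± SD of a group. For Adgre1 the WT loaded ulna of mouse 694 stands highest of its group at 48.0 CPM and the CKO loaded ulna of mouse 698 lowest at 11.4 CPM.

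The first comparison asked whether loading moved macrophage and monocyte genes in WT bone. Adgre1 lay at 23.9 to 40.8 CPM (median 26.9) in non-loaded and 23.0 to 48.0 CPM (median 28.9) in loaded ulnae. The ranges overlapped almost wholly, and in 3 of 7 mice the loaded limb had more Adgre1. Among the C1q chains, C1qb lay at 42.1 to 73.6 CPM (median 50.9) without and 44.6 to 90.2 CPM (median 51.3) with load, with more in the loaded limb in 4 of 7 mice. Mrc1 lay at 60.4 to 105 CPM (median 71.6) and 65.2 to 148 CPM (median 69.4). The medians of these genes were thus nearly equal in both limbs, and the highest loaded value of each came from mouse 694. None of the 10 genes passed the test (edgeR quasi-likelihood, Benjamini-Hochberg over 18793 genes; lowest adjusted p = 0.9998), where 0.00532% of all genes tested did; none had an unadjusted p under 0.05. DESeq2, limma voom and the fit with the mouse as a block called none either. Unadjusted p lay under 0.05 for 0 members with DESeq2 and the block fit, and for 1 member with voom (19.5% of all genes). The main edgeR fit did not pair the limbs of a mouse. Its log2 changes of the members had a median of 0.06, against -0.01 over all genes. They ran from -0.06 ± 0.23 (SE) for Cd68 to 0.16 ± 0.23 for C1qa, except Vsig4 at 0.96 ± 0.51. Leaving out single mice, the median ran from -0.05 (without mouse 694) to 0.17 (without mouse 685).

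Vsig4 had the largest fitted difference with loading in WT. Its level was 0.09 to 0.88 CPM (median 0.47) in non-loaded and 0.14 to 2.30 CPM (median 0.62) in loaded ulnae, and the ranges overlapped. In 5 of 7 mice the loaded limb had more Vsig4 (edgeR adjusted p = 0.9998). The WT limb differences of Vsig4 ran from -1.50 in mouse 699 to 2.14 in mouse 687 on the log2 scale.

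In CKO bone the same comparison gave lower values for most members in loaded ulnae, and none passed the test. Adgre1 was at 23.8, 53.0, 30.1 and 29.3 CPM in the non-loaded ulnae of mice 688, 691, 693 and 698 and at 26.2, 24.3, 27.9 and 11.4 CPM in their loaded ulnae. The groups overlapped, with a high non-loaded value in mouse 691 and a low loaded value in mouse 698. Cd68 was at 21.1, 66.2, 30.3 and 36.6 CPM without and 22.3, 26.3, 32.0 and 17.2 CPM with load in the same order. For Cd68, too, mice 691 and 698 set the difference, while in mice 688 and 693 the limbs were nearly equal. Cx3cr1 was at 14.8, 18.6, 9.15 and 12.7 CPM and at 12.5, 10.05, 8.37 and 8.45 CPM, lower in the loaded limb of 4 of 4 mice and with overlapping groups. It was the one member with the same sign in all CKO mice, and 11% of all genes tested had the same sign in those 4 mice. In WT no member had the same sign in every mouse (1.25% of all genes did).

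On the log2 scale the loaded minus non-loaded change in CKO was -0.60 ± 0.28 (SE) for Adgre1, -0.66 ± 0.30 for Cd68 and -0.49 ± 0.22 for Cx3cr1. In this main fit, which did not pair the limbs of a mouse, these were the 3 members with an unadjusted p under 0.05 (edgeR, 0.0419, 0.0409 and 0.0393). With adjustment over all genes the lowest p of any member was 0.739 (edgeR), where 0.016% of all genes tested were called and 677 genes lay under 0.05 unadjusted. DESeq2, voom and the block fit called none as well. Unadjusted p lay under 0.05 for 3 members each with DESeq2 and the block fit (839 and 983 of all genes). With voom, which weighted libraries by quality, it did for 0 members (1670 of all genes), and the members' median was -0.11. In the main fit the change was -0.47 for C1qa, -0.46 for C1qb, -0.46 for C1qc and -0.47 for Ccr2, and -0.34 for Mrc1. Cd163 (0.04) and Vsig4 (0.05) were nearly level. The members' median was -0.47, against -0.01 over all genes. It was -0.21 without mouse 691 and -0.29 without mouse 698. Without both mice, the mean limb difference over the remaining mice 688 and 693 was 0.02 for Adgre1, 0.30 for C1qb and -0.19 for Cx3cr1. That of C1qb came from mouse 688 (0.698), whose loaded library went against its label by Ltbp2, while mouse 693 had -0.105.

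**Figure D2:**
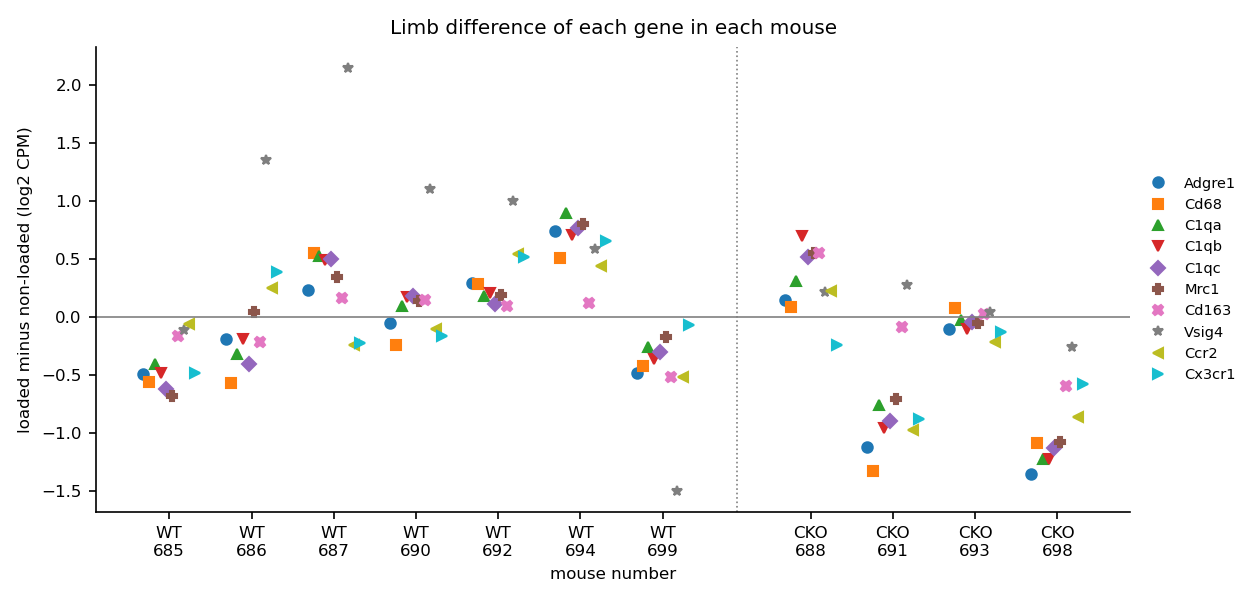
Loaded minus non-loaded level (log2 CPM) of the 10 genes in each of 11 mice, 1 symbol per gene, WT left and CKO right of the dotted line. All 10 genes lie above 0 in WT mice 692 and 694, and below it in WT mice 685 and 699 and CKO mouse 698, and the other mice are split.

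Mouse by mouse, the members' median lay above 0 in some mice and below 0 in others within each genotype. The median limb difference over the 10 genes was -0.48, -0.19, 0.42, 0.11, 0.24, 0.68 and -0.39 in WT mice 685, 686, 687, 690, 692, 694 and 699, and 0.27, -0.89, -0.05 and -1.08 in CKO mice 688, 691, 693 and 698. All 10 genes were higher in the loaded limb of mice 692 and 694, and all 10 lower in that of mice 685, 699 and 698. In the other mice the members were split, with 4 of 10 higher in the loaded limb in mouse 686, 8 in mouse 687, 6 in mouse 690, 9 in mouse 688, 1 in mouse 691 and 3 in mouse 693. The median over all genes stayed between -0.03 and 0.03 in every mouse.

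The difference between the loading responses of CKO and WT, the interaction, was not called for any member (edgeR, lowest adjusted p = 0.697; 0% of all genes tested passed, and 488 lay under 0.05 unadjusted). Its log2 value was -0.63 ± 0.35 (SE) for Adgre1, -0.60 ± 0.38 for Cd68, -0.63 ± 0.38 for C1qa, -0.54 ± 0.28 for Cx3cr1 and 0.04 ± 0.46 for Cd163, with a median of -0.55 over the members and 0.00 over all genes. It was -0.28 without mouse 691, and -0.04 with skeletal muscle and marrow scores as covariates. The marrow score was the mean log2 CPM of the neutrophil, erythroid and B cell genes read below. In the main fit 0 members had an unadjusted p under 0.05 for the interaction. In the block fit, which pairs the limbs, 1 member had, as did 748 of all genes.

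Between genotypes, no member was called in non-loaded ulnae (edgeR, lowest adjusted p = 0.976; 0% of all genes called, 572 with an unadjusted p under 0.05). The log2 CKO/WT value was 0.23 ± 0.24 (SE) for Adgre1, 0.21 ± 0.26 for C1qb, 0.27 ± 0.29 for Ccr2 and -0.40 ± 0.33 for Cd163. The members' median of 0.20 was -0.10 without mouse 691 and 0.35 without mouse 688. In loaded ulnae all 10 values lay below 0, while 43.7% of all genes lay above it. The members' median was -0.35 against -0.04 over all genes, and none was called (edgeR, lowest adjusted p = 0.601, 0% of all genes called, 1280 with an unadjusted p under 0.05). Adgre1 was at -0.40 ± 0.25, C1qa at -0.43 ± 0.27, Mrc1 at -0.30 ± 0.26 and Vsig4 at -1.14 ± 0.63. The median was -0.17 without mouse 698 and -0.22 without mouse 694. Both genotype comparisons share mice with the loading comparisons, so these values are not independent of those above.

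Other macrophage and monocyte genes were read from lists. Of all genes tested, 47.7% lay above 0 for loading in WT and 48.3% for loading in CKO. Of 15 pan-macrophage genes none passed the test in any of the 5 comparisons, with 8 of 15 above 0 for loading in WT (median log2 0.01) and 15 of 15 below 0 for loading in CKO (median -0.53). Csf1r, the receptor for the growth factor that macrophages need, stood at 119 ± 19.6 CPM (SD) in the 7 non-loaded and 118 ± 13.99 CPM in the 7 loaded WT ulnae, and at 121 ± 46.0 CPM in the 4 non-loaded and 92.0 ± 23.6 CPM in the 4 loaded CKO ulnae. Of 12 monocyte genes none passed, with 10 above 0 for loading in WT (median 0.08) and 11 below 0 for loading in CKO (median -0.49). Ly6c2, a surface protein of inflammatory monocytes, was at 115 ± 86.7, 114 ± 43.5, 122 ± 48.0 and 88.1 ± 22.4 CPM in the same order. Of 14 resident macrophage genes 13 were tested and none passed, with 9 of 13 above 0 for loading in WT (median 0.05) and 7 of 13 below 0 for loading in CKO (median -0.09). The log2 change for loading in WT was 0.85 ± 0.45 (SE) for Folr2, 0.65 ± 0.35 for Lyve1 and 0.28 ± 0.34 for Timd4. In CKO it was 0.22 ± 0.62, 0.50 ± 0.46 and -0.11 ± 0.45. Folr2 and Timd4 lay near the floor, down to 0.035 and 0.27 CPM in non-loaded WT ulnae. Of 8 genes of macrophages in erythroid islands none passed, with 7 above 0 for loading in WT (median 0.14) and 8 below 0 for loading in CKO (median -0.38). Siglec1, a sialic acid receptor of these cells, was at 27.4 ± 6.43 CPM in non-loaded and 31.3 ± 17.7 CPM in loaded WT ulnae, and at 30.2 ± 15.1 CPM in non-loaded and 23.4 ± 7.66 CPM in loaded CKO ulnae.

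Genes whose products act with those of the members were read in the same way. Of 16 complement genes, among them the proteases C1ra and C1s1 that bind C1q, none passed in any comparison (medians for loading 0.03 in WT and -0.18 in CKO). C1ra stood at 29.5 ± 4.86, 30.2 ± 1.46, 27.4 ± 4.47 and 28.6 ± 3.76 CPM in that order of groups. Of 12 ligand genes 11 were tested and none passed (medians 0.17 and 0.01). Ccl2, the main ligand of Ccr2, was at 0.48 ± 0.25 CPM without and 1.48 ± 1.14 CPM with load in WT, and at 0.70 ± 0.53 CPM without and 1.45 ± 0.86 CPM with load in CKO ulnae, and Ccl7 at 0.25 ± 0.22, 1.12 ± 0.94, 0.52 ± 0.68 and 0.94 ± 0.48 CPM. For loading in WT the log2 change was 1.64 ± 0.47 (SE) for Ccl2 and 2.16 ± 0.66 for Ccl7 (edgeR, unadjusted p = 0.0021 and 0.0035, adjusted p = 0.9998 for both). In CKO it was 1.05 ± 0.60 and 0.85 ± 0.81. Both genes lay near the floor, down to 0.197 and 0.035 CPM in non-loaded WT ulnae. Of 11 genes of the TLR4 complex and its adaptors none passed (medians 0.04 and -0.14). Its co-receptor Cd14 was at 5.88 ± 1.22, 6.02 ± 1.58, 6.83 ± 4.42 and 6.67 ± 2.25 CPM.

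Markers of the other cells of such a sample were also read. For loading in CKO, all 12 neutrophil genes, all 10 B cell genes, all 10 T and NK cell genes and all 9 measured erythroid genes had values below 0, with medians of -0.59, -0.56, -0.76 and -0.48 on the log2 scale. So did 11 of 12 osteoclast genes (median -0.61) and 8 of 10 measured dendritic cell genes (median -0.44). All 15 skeletal muscle genes lay above 0 (median 0.55), as did 9 of 12 osteoblast and osteocyte genes (median 0.21) and 6 of 8 endothelial genes (median 0.11). Of all genes tested 48.3% lay above 0 for loading in CKO. No gene of these lists passed the test in any comparison. The summed share of the muscle list was 4.51% to 13.5% of all counts without and 5.59% to 14.6% with load in WT ulnae, and 2.82% to 14.7% without and 11.2% to 15.8% with load in CKO ulnae. The neutrophil list held 0.298% to 2.19%, 0.274% to 1.05%, 0.376% to 1.58% and 0.277% to 0.529% in the same order, and the 10 members 0.0341% to 0.06%, 0.0325% to 0.0749%, 0.0282% to 0.0902% and 0.0177% to 0.0409%. No marker of these lists was at 0 in all libraries. In mouse 691 the muscle share was 2.82% in the non-loaded and 12.2% in the loaded ulna, in mouse 698 it was 9.87% and 15.8%, and in WT mouse 694 it was 10.6% and 5.59%.

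Over the 11 mice, the limb difference of 8 members was inversely related to the limb difference of the muscle score, the mean log2 CPM of the 15 muscle genes. Pearson's r was -0.83 for Adgre1, -0.78 for Cd68, -0.72 for C1qa, -0.77 for C1qb, -0.75 for C1qc, -0.74 for Mrc1, -0.88 for Ccr2 and -0.79 for Cx3cr1 (permutation test, adjusted p from 0.00101 to 0.0291 over all genes). For Cd163 (r = -0.50) and Vsig4 (r = -0.33) it was not called (permutation test, adjusted p = 0.176 and 0.404). Spearman's rho ran from -0.48 for Vsig4 to -0.89 for Ccr2. Of all genes tested 50.4% were called for a relation to the muscle score in the same way, in either direction. In some smaller sets of mice, some or all of the members' calls were lost. Without mice 691 and 694, the 2 farthest from the median of the muscle score, r was between -0.52 for Vsig4 and Cx3cr1 and -0.81 for Ccr2. No member was then called (exact permutation, lowest adjusted p = 0.0531). With fewer mice and a narrower span of the score, the lost calls cannot tell whether the relation rested on these mice. Without mouse 691 alone 4 of the 8 lost the call, and without mouse 694 alone 3 did. Within the 7 WT mice r ran from -0.40 for Vsig4 to -0.85 for Adgre1 and none was called (exact permutation, lowest adjusted p = 0.0746), and 4 CKO mice were too few for a value. The part of tissue share in the limb differences was not tested further. With muscle and marrow scores as covariates the members' median change for loading in CKO was -0.03. The neutrophil, erythroid and B cell genes of the marrow score lay below 0 for loading in CKO, as most members did. This value is therefore no test of tissue share.

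**Figure D3:**
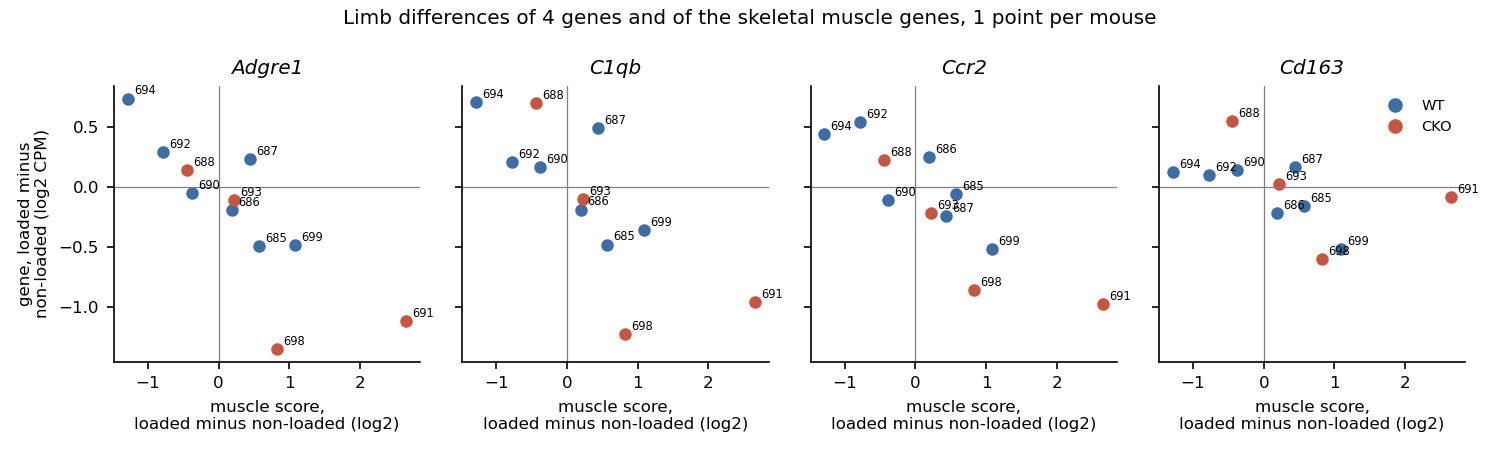
Limb difference of Adgre1, C1qb, Ccr2 and Cd163 (log2 CPM, y axis) against the limb difference of the skeletal muscle score (x axis), 1 point per mouse, WT blue and CKO red, with mouse numbers. Mouse 691 lies far to the right at 2.65, mouse 694 far to the left at -1.28, and the points run from upper left to lower right with r between -0.50 for Cd163 and -0.88 for Ccr2.

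The members varied together to very different degrees. Over the 22 libraries the log2 ratio of C1qa to C1qc had an SD of 0.07, the smallest of the 45 pairs, while each gene alone had an SD of 0.44. The ratio of C1qb to C1qc had an SD of 0.11, that of C1qb to Mrc1 0.13, and that of Adgre1 to C1qb 0.19. The log2 ratio of C1qa to C1qc stayed between -0.48 and -0.15, whereas that of Adgre1 to C1qb ran from -1.18 to -0.40. Each of these genes alone spanned 3.77-fold (C1qc) to 4.62-fold (Adgre1) from the lowest to the highest library. Cd68 followed less closely, with an SD of 0.24 against Adgre1 and 0.33 against Mrc1. Ccr2 and Cx3cr1 had an SD of 0.36 to each other, where Cx3cr1 alone had 0.34. Against Adgre1 they had 0.43 (Ccr2) and 0.39 (Cx3cr1), and against Mrc1 0.56 and 0.47. Cd163 had 0.45 against Mrc1, the gene closest to it, and 0.74 against Ccr2. Vsig4, with its few counts, was between 0.74 and 1.06 against every other member.

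**Figure D4:**
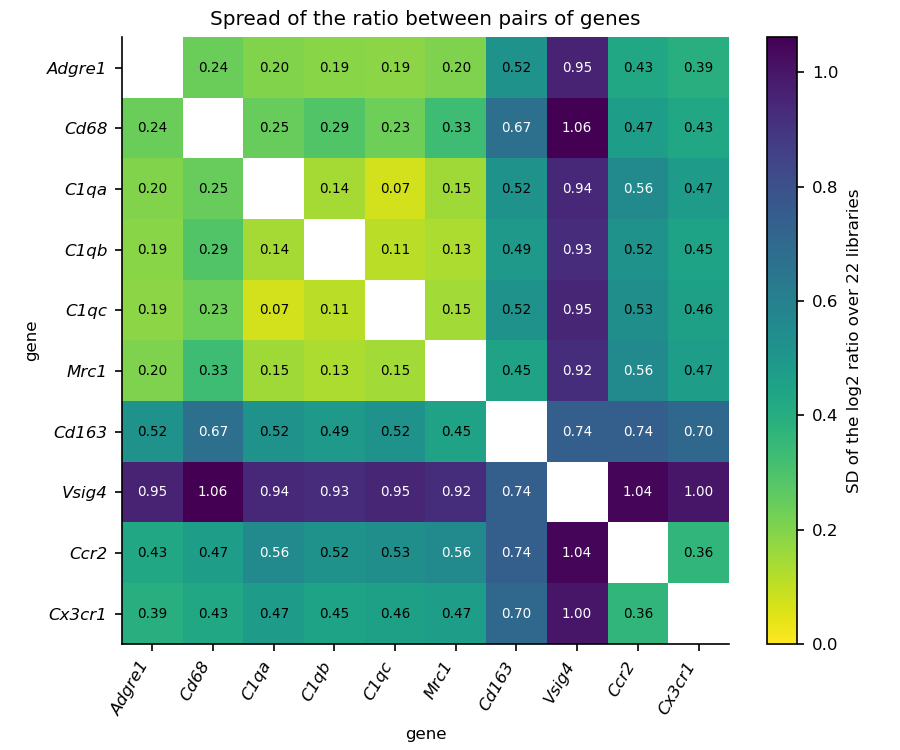
SD of the log2 ratio of each pair of the 10 genes over 22 libraries, printed in each cell and coloured from yellow (0) to dark (1.06). The smallest values form a block of C1qa, C1qb, C1qc, Mrc1 and Adgre1, at 0.07 to 0.20.

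The ratio of Mrc1 to Ccr2 shows how far these 2 genes ran apart. It was 1.58 in the non-loaded and 2.04 in the loaded ulna of mouse 694, 1.54 and 0.999 in mouse 685, 0.46 and 0.58 in mouse 699 and 0.64 and 0.50 in mouse 692. Over both genotypes it ran from 0.46 to 2.04, and the 4 CKO mice lay within that span at 0.53 to 1.22. These are ratios of CPM without correction for length.

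Genes that followed the members were looked for among 13416 genes with a mean of at least 1 CPM, by Pearson's r with the mean z score of the 10 members over the 22 libraries. The libraries come in pairs from 11 mice and share their tissue make-up, so r is a description and no p is given. The closest were Amz1 (r = 0.944), Vcam1 (0.937), an adhesion molecule of marrow stroma and island macrophages, and H2-D1 (0.920), a class I histocompatibility gene. They were followed by Epsti1 (0.906), Rpl3 (0.903), Trpv2 (0.902), Donson (0.898), Pld3 (0.894), Cfp (0.891), which encodes properdin, and Dtnb (0.890). Taken one by one, Adgre1 was closest to Vcam1 (r = 0.943), Cd68 to Ctsz, a lysosomal protease (0.965), Mrc1 to C1qb (0.956) and C1qa to C1qc (0.986). Ccr2 was closest to Ms4a6c (0.967), a gene on the monocyte list, and Cd163 to Cd5l (0.802), a secreted protein of macrophages. Cx3cr1 was closest to Hps3 (0.875) and Vsig4 to Snora68 (0.620). The exon of Cx3cr1 shares 78 bases with the antisense gene Gm33858; whether the counting used strand is not stated, so reads there may belong to either.

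The relation to Tlr4 was read over mice, since limbs of a mouse are not independent. For the mean of both limbs, Pearson's r with Tlr4 over 11 mice was 0.60 for Ccr2 (rho 0.42; permutation test, p = 0.0502, adjusted p = 0.519 over all genes), 0.41 for Cd68, 0.38 for Adgre1, 0.28 for Vsig4, 0.20 for C1qc and 0.19 for Cx3cr1. It was 0.17 for both C1qa and Cd163, 0.15 for C1qb and 0.01 for Mrc1. No member was called, nor was any gene (0% of 18792; median r of all genes -0.05). The mice highest in Tlr4 were mouse 692 with a mean of 40.8 CPM and mouse 699 with 37.0 CPM. Their Ccr2 levels were also high (95.2 and 138 CPM, and 171 and 119 CPM, in the non-loaded and loaded ulna). Leaving out single mice, r for Ccr2 was 0.47 (without mouse 699) to 0.73 (without mouse 694), and in the 7 WT mice it was 0.70. Without both mice 692 and 699 it was 0.12 (exact permutation, p = 0.752). With fewer mice and a narrower span of Tlr4, that value cannot tell whether the relation rested on them. Without them Cd68 (0.33) and Cx3cr1 (0.13) were also lower than before, while the other 7 were higher: 0.71 for Vsig4, 0.60 for Cd163, 0.53 for C1qc, 0.50 for C1qa, 0.47 for both C1qb and Adgre1 and 0.39 for Mrc1. None of these was called (exact permutation, lowest adjusted p = 0.808).

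For limb differences, r with the limb difference of Tlr4 lay between 0.38 for Cx3cr1 and 0.58 for Mrc1 (rho 0.23 for Ccr2 to 0.45 for Vsig4), and none of the 10 was called (permutation test, adjusted p = 0.991 for all; 0% of all genes called). Mouse 698 had the lowest Tlr4 limb difference, -0.44, and the lowest median of the members, -1.08. Without mouse 698 and mouse 686, the 2 farthest from the median, r was 0.04 for Cx3cr1 to 0.46 for Cd68. Within the 7 WT mice it was -0.20 for C1qa to 0.52 for Vsig4, with 6 of 10 members below 0. Tlr4 itself varied little: its SD over libraries was 0.20 on the log2 scale, against 0.34 for Cx3cr1 and 0.54 for Cd163.

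Cd163 had the highest correlation between the limbs of a mouse among the members; the choice to single it out was made with its values in view. In the non-loaded and loaded ulna it was at 43.8 and 47.6 CPM in mouse 694, 31.6 and 35.4 in mouse 687, 25.7 and 27.5 in mouse 692, 26.3 and 22.6 in mouse 686, 23.3 and 20.8 in mouse 685, 15.8 and 17.4 in mouse 690, and 16.7 and 11.6 CPM in mouse 699, all WT. In the CKO mice 688, 691, 693 and 698 it was at 18.8 and 27.4, 22.1 and 20.8, 23.0 and 23.4, and 15.4 and 10.1 CPM. Mice high in one limb were thus high in the other. Pearson's r between limbs was 0.88 over 11 mice (rho 0.85; permutation test, p = 0.00041), higher than for 99.6% of all genes tested, but with adjustment over all genes it was not called (adjusted p = 0.114; 0% of genes called). It was 0.75 without mice 694 and 698, the 2 farthest from the median, and 0.94 in the 7 WT mice. Among the other members r was 0.47 for Ccr2 (rho 0.69, and 0.72 in the WT mice), 0.46 for Vsig4 (rho 0.32, and 0.38 in the WT mice) and -0.04 to 0.14 for the remaining 7, and the median of all genes was 0.13. Whether the correlation of Cd163 exceeds that of another member was not tested. The SD of its limb difference was 0.33 on the log2 scale and that of its mouse means 0.53, whereas C1qb had 0.63 and 0.32.

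**Figure D5:**
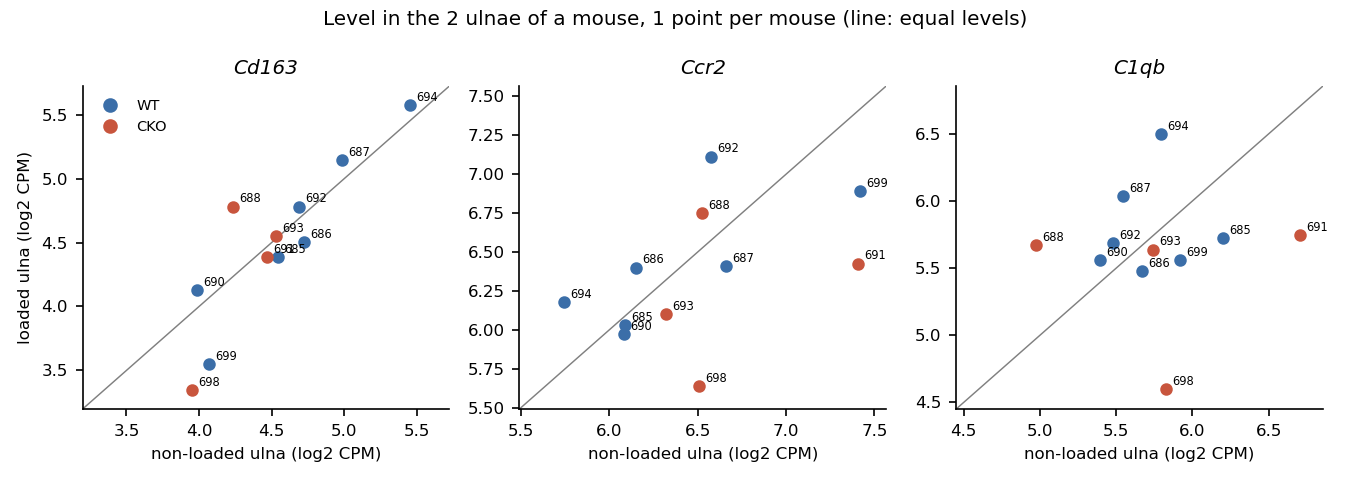
Level in the loaded (y axis) against the non-loaded ulna (x axis), log2 CPM, for Cd163, Ccr2 and C1qb, 1 point per mouse, WT blue and CKO red; the line marks equal levels. Cd163 follows the line from mouse 698 to mouse 694 (r = 0.88), Ccr2 less so (r = 0.47), and C1qb shows no such order (r = 0.00016).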

How the data were processed

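Per the labels' protocols, ulnae were kept in RNAlater and milled in Trizol under liquid nitrogen, and 4 ng of total RNA entered each library (SMARTer Stranded kit). STAR, RSEM and the build GRCm38 are named in the submitters' processing notes; of versions, annotation and strand setting the sources used here say nothing. The authors deposited expected counts per gene, 1 file per library, which hold whole numbers and were used as such. Symbols, exon lengths and coordinates were taken from GENCODE M21, also GRCm38 (25428 of 25471 genes matched).

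Groups, limbs and mouse numbers came from the labels. As the main test, edgeR 4.0.16 was run in R 4.3.3 (limma 3.58.1) with filterByExpr, TMM scaling and the robust quasi-likelihood fit, fitted to all 22 libraries with 4 group means (18 residual degrees of freedom). This fit and its SE did not pair the limbs of a mouse, whereas the block fit did (9 residual degrees of freedom). Benjamini-Hochberg adjustment ran over all 18793 tested genes, and a gene was called at an adjusted p under 0.05; all 10 members were tested. Log2 CPM used a prior count of 2, and CPM was scaled by TMM. An SE is the fold change divided by the square root of F. Correlations used 100000 permutations of the mice, or all permutations for fewer than 10 mice, for every gene, with adjustment over all of them. The depth, 21999891 to 42833729 counts per library, limits Vsig4 most among the members.

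By the labels, limbs with the same number come from the same mouse, so the numbers pair the samples. Deviations of the limbs from their group means correlated at -0.256 to 0.415 over the 11 mice (median 0.189). Of the 11 pairs, 7 correlated above 0.1, and in 6 the mouse's own limb matched best. The block fit (DESeq2 1.42.0, voom with quality weights per library, other scalings, filters, covariates and left-out mice likewise) was an alternative. The mice are separate animals.

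The members and lists were chosen with earlier results of these data known. Named were the members and Tlr4, the first 3 measured genes of a list or any list gene called, the 10 genes most alike to the members' mean z score, and the most alike gene of each member. Not every gene this rule names is printed. Ltbp2, the muscle relation and the limb comparison of Cd163 were added after the data were seen. Of the list genes, Ahsp has no row in the tables used here.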

Additional observations from a re-analysis of the deposited data

Results flagged for a closer look

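Within groups of 4 or 7 samples, 5 values stood farther from their group than Dixon's test allows on the log2 scale. In 66 groups tested (11 genes in 4 groups of libraries and in the limb differences of 2 genotypes), chance flags about 1 in 20. All 5 come from 2 loaded ulnae, and genes of 1 library are not independent of each other. In the WT loaded ulna of mouse 694, Adgre1 was at 48.0 CPM, C1qa at 94.3 CPM and Mrc1 at 148 CPM, each the highest of 7. In the CKO loaded ulna of mouse 698, Adgre1 was at 11.4 CPM and C1qb at 24.2 CPM, each the lowest of 4. The muscle share of counts was 5.59% in the first of these libraries, the lowest of the WT loaded ulnae, and 15.8% in the second, the highest of the CKO loaded ulnae; its part in these values was not tested.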

How the results depend on the processing

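No member was called in any of the 5 comparisons under any of the 104 combinations of comparison and alternative that were fitted. The mouse as a replicate block left the members' median log2 change at 0.06 for loading in WT, -0.42 in CKO and -0.50 for the interaction, and as a random effect at 0.10 and -0.35 for CKO against WT in non-loaded and loaded ulnae; it changed no call, and of the single members it turned the sign of Cd163 for loading in CKO alone (-0.028). Of 1035 single fold changes under an alternative, 68 had the other sign, all of them uncalled. Loading in WT sat near 0 and turned most easily. Ccr2 there was -0.023 with median-ratio scaling, -0.013 with upper-quartile scaling, -0.0066 without a filter, -0.0024 with the stricter filter, -0.023 with DESeq2 and -0.00019 with only the compared groups. With voom the members' medians were 0.13 and -0.11 for loading in WT and CKO, -0.25 for the interaction, and 0.11 and -0.15 for CKO against WT in non-loaded and loaded ulnae; Cd163 was 0.022 for loading in WT, Vsig4 was -0.0086 for loading in CKO, and in non-loaded ulnae CKO against WT gave -0.0082 for Cd68, -0.062 for Cx3cr1 and 0.32 for Vsig4.

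With muscle and marrow covariates the members' medians were 0.01 and -0.03 for loading in WT and CKO, -0.04 for the interaction, and -0.07 and -0.11 for CKO against WT in non-loaded and loaded ulnae. Signs then turned for Adgre1 (-0.072) and C1qc (-0.056) for loading in WT, and for C1qb (0.0066), C1qc (0.0076), Mrc1 (0.037) and Vsig4 (-0.0032) for loading in CKO. They turned for C1qc (0.064) and Mrc1 (0.011) in the interaction, and for Ccr2 (0.0037) in loaded ulnae. In non-loaded ulnae CKO against WT turned for Adgre1 (-0.019), Cd68 (-0.041), C1qa (-0.093), C1qb (-0.064), C1qc (-0.12) and Mrc1 (-0.066). Without mice 686 and 688 the median for CKO against WT in non-loaded ulnae was 0.34, loading in WT was 0.021 for Cd163, -0.046 for Ccr2 and -0.016 for Cx3cr1, loading in CKO -0.15 for Cd163 and -0.032 for Vsig4, and the interaction -0.17 for Cd163. The cause of these turns was not tested.

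Leaving out single mice gave, for loading in WT, -0.15 to 0.13 for Adgre1, -0.19 to 0.027 for Cd68, -0.052 to 0.25 for C1qa, -0.056 to 0.20 for C1qb, -0.12 to 0.19 for C1qc, -0.054 to 0.27 for Mrc1, -0.050 to 0.047 for Cd163, -0.12 to 0.16 for Ccr2 and -0.041 to 0.15 for Cx3cr1, with the low end without mouse 694 except for Ccr2 (mouse 692). For loading in CKO it gave -0.14 to 0.17 for Cd163 and -0.023 to 0.21 for Vsig4, and for the interaction -0.12 to 0.18 for Cd163. For CKO against WT in non-loaded ulnae it gave -0.079 to 0.35 for Adgre1, -0.15 to 0.43 for Cd68, -0.099 to 0.39 for C1qa, -0.18 to 0.41 for C1qb, -0.18 to 0.38 for C1qc, -0.11 to 0.34 for Mrc1, -0.043 to 0.52 for Ccr2 and -0.51 to 0.066 for Vsig4, with the low end without mouse 691 except for Vsig4 (mouse 688).

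No relation to Tlr4 was called under any alternative. Over mouse means, r turned with residuals on the muscle score for C1qa (-0.13), C1qb (-0.23), C1qc (-0.12) and Mrc1 (-0.31), in WT mice alone for Mrc1 (-0.079) and Cx3cr1 (-0.053), and without mice 686 and 688 for Mrc1 (-0.046). Leaving out single mice it was -0.13 to 0.24 for Mrc1 and -0.050 to 0.45 for Cx3cr1. Over limb differences it turned in WT mice alone for Adgre1 (-0.073), Cd68 (-0.041), C1qa (-0.20), C1qb (-0.041), C1qc (-0.14) and Cd163 (-0.059). Relations to the muscle score kept their sign throughout. The 8 that were called lost the call in 27 combinations of gene and alternative: 8 each in the WT mice alone and without the 2 farthest mice, where fewer mice were tested, 4 without mouse 691, 3 without mouse 694, 2 with Spearman's rho and 2 without mice 686 and 688. Depth limits Vsig4, at 3 to 60 counts per library.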
